A study of Mus musculus with 4 samples.

Results

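Small proline-rich proteins were followed in single-cell RNA sequencing of mouse back skin epidermis after deletion of ΔNp63. The members were the 8 listed genes Sprr1a, Sprr1b, Sprr2a3, Sprr2d, Sprr2e, Sprr2h, Sprr2i and Sprr3, taken by symbol from 32285 genes in each of 4 matrices. The files list 15 genes whose symbol starts with Sprr, and the other 7 are given by range. The list was made with earlier results of these data known, but no measured value enters the rule.

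Small proline-rich proteins are short structural proteins of the cornified envelope, the cross-linked protein shell that replaces the plasma membrane of a dying keratinocyte. Transglutaminases join them to loricrin, involucrin and each other through glutamine and lysine residues at their ends, and they are thought to act as flexible bridges. Their genes lie side by side in the epidermal differentiation complex. In healthy skin the SPRR1 and SPRR2 proteins are scarce between hairs and abundant after wounding, in psoriasis and in barrier defects, and SPRR3 is known mainly from internal stratified epithelia such as the esophagus.

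The control mice carried DNp63fl/fl alleles and the experimental mice were DNp63fl/fl;K14-CreT2, in which the keratin 14 promoter drives a tamoxifen-dependent Cre in basal keratinocytes. Both genotypes received tamoxifen by oral gavage at 200 mg/kg daily on 5 days, so the drug was shared by all groups. Isolation followed the ablation by 1 day or by 1 week, and each of the 4 groups was 1 library. The labels give ages of 2 to 17 months, equal numbers of males and females, and release of the epidermis with 0.25% trypsin overnight at 4 °C or for 2 hours at 37 °C. They do not say which digestion or how many animals went into a library. The 1-day libraries used a 3′ kit (version 3.1) and the 1-week libraries a 5′ kit (version 1.1). Levels were therefore compared between control and experimental cells of 1 time point and never across time points.

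With 1 library per group no test of the condition was possible and no difference below has a replicate check. A UMI marks 1 captured RNA molecule. A level is given as CPM, the UMIs of a gene summed over the cells named and scaled to the gene UMIs of the same cells. Intervals are exact 95% intervals and cover counting error only. A gene is called higher or lower when its CPM differed at least 2-fold and it held at least 20 UMIs in both libraries together. In such sums a larger share of cells with a gene and more RNA per cell cannot be told apart, which is why shares of cells are given separately.

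Gene UMI totals ranged from 68191870 to 179736563 per library, and 15626 to 23651 cells per library were kept. Keratinocytes numbered 20522 (control) and 18336 (experimental) in the 1-day pair, and 6021 and 2816 in the 1-week pair. The epidermal label was borne out by the keratin genes, with Krt14 at 4997 CPM (control) and 3039 CPM (experimental) in 1-day keratinocytes and Krt10 at 7324 and 6919 CPM. Trp63, the gene that encodes ΔNp63, was at 404 CPM in control and 126 CPM in experimental keratinocytes of the 1-day pair, and at 446 and 193 CPM in those of the 1-week pair. These counts cover every Trp63 transcript. The 3′ tags of the 1-day kit lie outside the start specific to ΔNp63, so at 1 day they do not check the deletion itself. Xist was at 0.0278 and 0.0636 CPM in 1-day control and experimental keratinocytes, beside Y-linked genes at 165 and 172 CPM, which goes against the label of equal sexes for both 1-day libraries. The libraries of a time point shared 299 (1 day) and 661 (1 week) barcode sequences, against 9 to 18 between time points. Kits differ between the time points, so these counts cannot be set against each other, and the source of the sharing was not tested. At 1 week, 57.1% of control and 73.7% of experimental cells fell in low-UMI clusters, in which at least 50% of barcodes had under 3000 UMIs and a profile like that of the shallowest barcodes, and these were set aside from the keratinocytes. This was done at 1 week only. At 1 day the 4 bulge-like clusters, 1 granular-like, 1 myeloid and 1 T cell cluster, with 50.3% to 77.7% of such barcodes, were kept. Without those of them that are keratinocytes the 1-day log2 ratios were 1.64 for Sprr1a and 3.21 for the Sprr2 sum. The 1-week control keratinocytes include 1 cluster of 99 cells led by immunoglobulin genes, and without it the 1-week log2 ratios were 0.97 and 2.05. The part of free RNA in levels of other cells was not tested.

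The 8 genes lie on chromosome 3 (GRCm38) from 92285417 to 92485895, a span of 200.5 kb with the Sprr2 genes on the plus strand and Sprr1b, Sprr3 and Sprr1a on the minus strand. The promoters of 5 members are shown because their letters separate Sprr2a3 from the rest of the group. Each line is the 250 bases before the RefSeq start, 5′ to 3′ on the gene's own strand (GRCm38.p6). Capitals mark an AP-1 site (TGANTCA), an octamer (ATTTGCAT, either strand) or a TATA box (TATAAA, either strand), a choice of motifs settled with the sequences in view.
Sprr1a, chr3:92485882-92486131, minus strand: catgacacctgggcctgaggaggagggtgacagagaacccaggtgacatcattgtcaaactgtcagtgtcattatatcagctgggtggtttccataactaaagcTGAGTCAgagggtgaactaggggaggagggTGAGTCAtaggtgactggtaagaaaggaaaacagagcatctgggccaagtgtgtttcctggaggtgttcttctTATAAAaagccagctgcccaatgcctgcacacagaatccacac
Sprr1b, chr3:92438780-92439029, minus strand: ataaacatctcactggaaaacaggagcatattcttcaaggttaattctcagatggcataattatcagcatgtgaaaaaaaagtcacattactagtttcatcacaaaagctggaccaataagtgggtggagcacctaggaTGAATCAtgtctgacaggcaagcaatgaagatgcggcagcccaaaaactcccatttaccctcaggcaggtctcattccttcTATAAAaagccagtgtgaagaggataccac
Sprr2a3, chr3:92285054-92285303, plus strand: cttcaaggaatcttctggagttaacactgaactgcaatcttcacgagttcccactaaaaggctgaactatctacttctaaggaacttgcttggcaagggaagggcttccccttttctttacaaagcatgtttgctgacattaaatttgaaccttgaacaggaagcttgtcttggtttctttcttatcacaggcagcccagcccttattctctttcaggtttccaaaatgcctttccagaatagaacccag
Sprr2d, chr3:92338890-92339139, plus strand: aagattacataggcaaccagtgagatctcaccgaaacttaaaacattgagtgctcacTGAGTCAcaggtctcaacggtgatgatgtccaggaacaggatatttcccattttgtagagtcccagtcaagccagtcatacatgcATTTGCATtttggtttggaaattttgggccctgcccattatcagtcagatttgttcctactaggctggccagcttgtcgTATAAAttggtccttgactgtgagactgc
Sprr2h, chr3:92385435-92385684, plus strand: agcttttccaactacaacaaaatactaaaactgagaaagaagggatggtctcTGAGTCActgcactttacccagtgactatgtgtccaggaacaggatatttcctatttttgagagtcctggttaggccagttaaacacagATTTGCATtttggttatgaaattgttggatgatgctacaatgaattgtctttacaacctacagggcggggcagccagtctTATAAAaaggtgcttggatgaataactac

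AP-1 is the Fos and Jun dimer that responds to stress and differentiation signals in keratinocytes. A match to TGANTCA was present in 6 of the 8 members' promoters and in 6.75% of 32851 promoters of the same length. The octamer bound by POU factors was present in Sprr2d, Sprr2e, Sprr2h and Sprr2i and in 1.60% of all promoters. In Sprr2d, Sprr2e and Sprr2i it began 108 bases before the start and the AP-1 match 193 bases before it, and in Sprr2h these distances were 109 and 198 bases. A TATAAA match, searched on both strands, was present in every member except Sprr2a3, against 12.4% of all promoters. All octamer and TATAAA matches of the members lay on the gene strand. The ETS core AGGAAG, searched on both strands, was found in Sprr2a3 and Sprr3, against 29.5% of all promoters. A p53-family half-site, also searched on both strands, was found in Sprr2a3 only, against 7.13% of all promoters. The RefSeq start of Sprr2a3 lies before its GENCODE start at 92285417, so its window may not be the promoter used in skin.

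The Sprr2 genes are close copies. Of all 60-base words of the Sprr2a3 transcripts, 44.5% occur in no other Sprr gene and 55.5% also occur in Sprr2a1, so reads could be split between these genes and Sprr2a3 values are uncertain. For the other 7 members 91.0% to 100% of such words were unique. The kits read 1 end of a transcript, and the ends differed. For Sprr2a3 36.7% of words were unique in the last 400 bases and 70.8% in the first 400. In the first 400 bases the values were 85.3% for Sprr2i and 86.5% for Sprr2e. The Sprr2 members were therefore also summed.

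Sprr1a, an envelope bridge protein, was by far the most abundant member in every library. In 1-day keratinocytes its level was 2890.3 CPM for control cells (interval 2880.1 to 2900.5) and 8905 CPM for experimental cells (8884 to 8926), a log2 ratio of 1.62. In 1-week keratinocytes the levels were 3999 CPM (control) and 7838 CPM (experimental), a log2 ratio of 0.97. Both experimental values lay above their control, and the 1-week ratio fell just short of 2-fold. That ratio pools unlike parts of the library. Sprr1a was at 3111 and 12166 CPM in cells with Xist and no Y-linked UMI. In cells with Y-linked and no Xist UMI it was at 4580 and 5312 CPM.

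Sprr1b, the close relative of Sprr1a, had unlike ratios at 1 day and 1 week. At 1 day it was at 185 CPM in control and 271 CPM in experimental keratinocytes, a log2 ratio of 0.55 that was not called. At 1 week the levels were 25.8 and 174 CPM, a log2 ratio of 2.75. Keratinocytes held 8.81% of the experimental library's Sprr1b UMIs then, and keratinocytes without a class alone 7.86%. That class includes a cluster of 76 experimental and no control cells, described below, with the highest Sprr1b level of any keratinocyte cluster. In the control library that class held 2.12% of the Sprr1b UMIs and spinous-like cells 63.95%. The experimental level thus rests largely on 1 class, and the ratio of 2.75 is not a value for keratinocytes at large. A ratio without the cluster of 76 cells was not computed. The kits differ between the time points, and the difference between these ratios was not tested.

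Among the Sprr2 genes the control keratinocytes held mostly Sprr2h, with 63.3 CPM in the 1-day and 82.9 CPM in the 1-week library. The experimental keratinocytes held Sprr2h at 321 CPM at 1 day (log2 ratio 2.34) and at 139 CPM at 1 week (0.75). The 1-week direction turned within the library, with Sprr2h at 48.0 and 217 CPM in cells with Xist and at 119 and 91.8 CPM in cells with Y-linked UMIs. Sprr2a3, Sprr2d and Sprr2e differed by more at both times, and Sprr2i at 1 day only.

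Sprr2d stood at 8.22 CPM in control and 191 CPM in experimental keratinocytes at 1 day (log2 ratio 4.54), and at 11.7 and 110.3 CPM a week after ablation (3.23). For Sprr2a3 the 1-day levels were 9.58 and 157 CPM (4.04) and the 1-week levels 14.1 and 202 CPM (3.85). For Sprr2e they were 0.863 and 48.0 CPM (5.80, interval 5.50 to 6.11) and 3.64 and 17.5 CPM (2.26). Every one of these experimental values exceeded its control by more than the counting error.

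Sprr2i, the listed copy nearest to the Sprr1 genes, was at 1.958 and 37.1 CPM at 1 day (4.25). At 1 week 43 control and 32 experimental UMIs gave 0.899 and 1.35 CPM, a log2 ratio of 0.59 whose interval (-0.12 to 1.29) covers no difference. That holds for the keratinocytes as defined here. The ratio was 2.78 with the low-UMI clusters, 3.85 over all cells, 4.46 with the Krt8-led clusters, 5.17 with coarser clusters and -0.07 with 3 unnamed control clusters.

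Sprr3 was all but absent. No library held more than 2 Sprr3 UMIs over all cells kept, and its share of keratinocyte UMIs at 1 week was 0 in the control (up to 0.0771 CPM) and 0.0423 CPM, from 1 UMI, in the experimental library. At this depth no difference in Sprr3 was detectable.

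Summed over the 5 Sprr2 members, keratinocytes of the 1-day pair held 83.9 CPM (control) and 755 CPM (experimental), a log2 ratio of 3.17 (3.14 to 3.20). At 1 week the sums were 113 and 470.3 CPM, a log2 ratio of 2.06 (2.01 to 2.10). The Sprr1 sum had log2 ratios of 1.58 and 0.99 and the total over all 8 members 1.65 and 1.04, from total levels of 3159 and 9930.3 CPM (1 day) and 4138 and 8482 CPM (1 week). Of the 8 members, 7 passed the UMI minimum at either time. At 1 day 6 of these 7 were higher and none lower, where 7.24% of 14843 genes tested were higher and 3.12% lower. At 1 week 4 were higher (Sprr1b, Sprr2a3, Sprr2d and Sprr2e) and none lower, against 13.3% and 5.45% of 14135 genes. Neither the Sprr1b call nor the Sprr2d call was checked without the cluster of 76 experimental cells that is high in both. The median log2 ratio of all genes was 0.0021 and 0.19. The count of 4 depends on the cells counted and on the way levels are averaged: Sprr1a, Sprr2h and Sprr2i also passed 2-fold over all cells (1.44, 2.25 and 3.85), with the Krt8-led clusters (1.56, 2.49 and 4.46) and as the mean CPM per cell (1.27, 2.26 and 2.33).

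The 1-week values depend on which cells count as keratinocytes and on the way levels are averaged. The Sprr2 log2 ratio of 2.06 became 3.87 with the Krt8-led clusters described below, 4.30 with coarser clusters (Leiden resolution 0.5) and 3.72 over all cells. It was 1.88 when 3 control clusters of 1253, 122 and 77 cells, led by genes of several other cell types and left unnamed, were counted. The ratio also rose with doublets kept and as the mean CPM per cell, with values in the closing section. The control keratinocytes held 2030 basal-like and 1132 spinous-like cells and the experimental ones 14 and 7, so this comparison also sets different mixtures of cells beside each other. The 1-day pair was unlike in its mixture too. It held 4945 control and 623 experimental basal-like cells, and 3659 and 313 spinous-like cells. A cluster led by Slpi held 4 and 4356 cells. The pooled 1-day log2 ratios of 1.62 (Sprr1a) and 3.17 (Sprr2 sum) thus also compare unlike mixtures. As the median over clusters with at least 50 cells in each library they were 1.425 and 2.415.

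**Figure D1:**
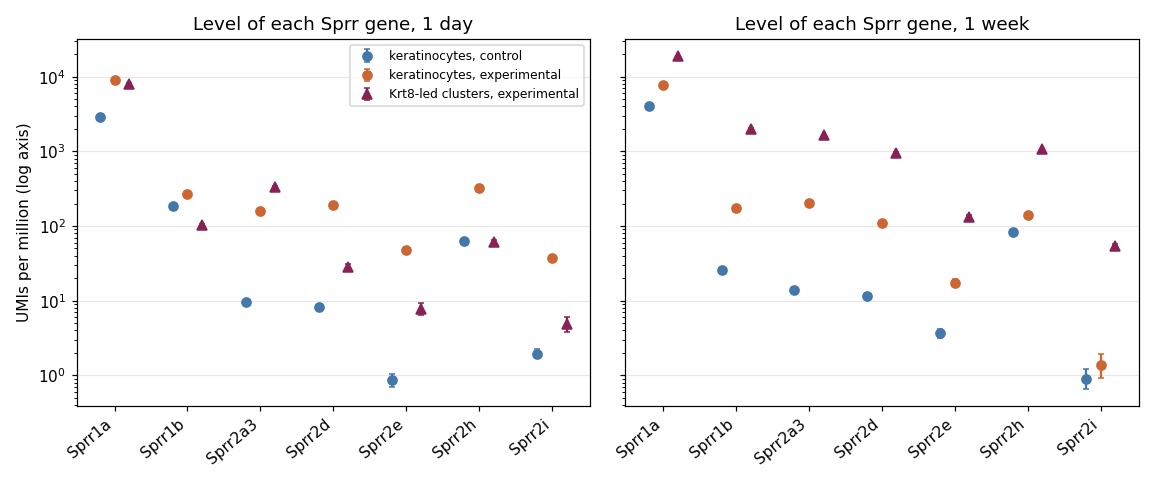
Level of 7 members in CPM (log axis) in control and experimental keratinocytes and in experimental Krt8-led clusters, at 1 day (left) and 1 week (right), with exact Poisson 95% intervals as bars. Sprr1a is the highest member in each group, and Sprr2a3, Sprr2d and Sprr2e stand further apart between control and experimental keratinocytes than Sprr1a at either time.

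Resolved by compartment at 1 day, the Sprr2 sum was higher in experimental cells of every compartment compared. The pooled Sprr1a ratio was near 0 in granular-like and upper follicle-like cells, but the granular-like levels pool different mixtures of clusters, which are given after them. Granular-like cells, the last living layer, which builds the envelope, held Sprr1a at 11238 CPM in control (1292 cells) and 11258 CPM in experimental cells (5708). Their log2 ratio was 0.00 (-0.01 to 0.01). Their Sprr2 sum was 166 and 877 CPM, a log2 ratio of 2.40. Within it Sprr2a3 was at 1.61 and 74.9 CPM (5.54), Sprr2d at 31.3 and 251 CPM, and Sprr2h at 111.3 and 447 CPM (2.01). Sprr1b was at 474 and 408 CPM. Of 7 members that passed the minimum 5 were higher, against 11.2% of genes tested.

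Different clusters made up the granular-like class in the 2 libraries. Of its clusters, 1 held 1058 control and 1191 experimental cells, with Sprr1a at 11964 and 12429.8 CPM and Sprr2 at 49.7 and 240 CPM. Another held 130 and 1979 cells, with Sprr1a at 10354 and 12839 CPM and Sprr2 at 738 and 1282 CPM. The last held 104 and 2538 cells, with Sprr1a at 2788 and 7340 CPM and Sprr2 at 85.0 and 538 CPM, and antigen-presentation genes were among its leading genes. It had 77.7% low-UMI barcodes and would have been set aside by the rule used at 1 week. Within each of these clusters both Sprr1a and the Sprr2 sum were higher in experimental cells, with Sprr1a log2 ratios of 0.06, 0.31 and 1.40, unlike the pooled ratio of 0.00.

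Upper follicle-like cells, of the pilosebaceous opening, formed 1 cluster. Sprr1a was at 8586 CPM in control (917 cells) and 8346 CPM in experimental cells (707), a log2 ratio of -0.04. Their Sprr2 sum was 17.0 and 120.3 CPM (2.82), so Sprr2 was scarce beside Sprr1a, at 1.98 and 14.4 Sprr2 UMIs per 1000 Sprr1a UMIs. Of 5 members that passed 4 were higher, against 4.07% of genes tested.

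In spinous-like cells, the layers between basal and granular cells, Sprr1a was at 3395 and 5383 CPM (0.67) and the Sprr2 sum at 43.7 and 146 CPM (1.74). Sprr1b was at 251 CPM in control and 165 CPM in experimental cells, a log2 ratio of -0.60. Only 313 experimental cells carried this class beside 3659 control cells. Of 5 members that passed 3 were higher, against 6.44%.

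The compartments with little Sprr1a in the control had the larger Sprr1a ratios. Basal-like cells held Sprr1a at 221 and 1307 CPM (2.56) and Sprr2 at 19.1 and 95.7 CPM (2.32). In cycling cells the Sprr1a levels were 189 and 1346 CPM (2.83) and the Sprr2 levels 25.4 and 215 CPM (3.09). Bulge-like cells, which carry hair follicle stem cell markers and come wholly from clusters that meet the low-UMI rule, held Sprr1a at 362 and 1031 CPM (1.51) and Sprr2 at 13.8 and 72.2 CPM (2.39). Sebaceous-like cells had Sprr1a at 394 and 3382 CPM (3.101) and Sprr2 at 8.88 and 286 CPM (5.01).

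Members higher among those that passed were 5 of 5 in basal-like cells (4.3% of genes tested), 6 of 6 in cycling (5.01%), 6 of 7 in bulge-like (3.21%) and 7 of 7 in sebaceous-like cells (11.7%). In these and the other 1-day compartments several members passed the minimum only through their experimental UMIs, such as Sprr2d (1 and 40 UMIs) and Sprr2a3 (10 and 105) in upper follicle-like cells. The counts by compartment were therefore bound to lean to the higher side and are not used as support.

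Cells that should not make these proteins carried them too. T cells at 1 day held Sprr1a at 863 CPM in control (753 cells) and 6727 CPM in experimental cells (427), and Sprr2 at 32 and 624 CPM. Fibroblasts held Sprr1a at 903 and 6627 CPM and Sprr2 at 29.8 and 499 CPM. The experimental basal-like, cycling, bulge-like, spinous-like and sebaceous-like levels of Sprr1a and of the Sprr2 sum all lay below those of T cells, and those of granular-like cells above. Upper follicle-like cells lay above the T cells for Sprr1a and below them for Sprr2 in both libraries. Langerhans and other myeloid cells held less, with Sprr1a at 222 and 904 CPM and Sprr2 at 14.1 and 97.9 CPM. Against these cells the Sprr1a levels of all 5 experimental compartments lay above, while the Sprr2 sums of basal-like and bulge-like cells lay below and the other 3 above.

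**Figure D2:**
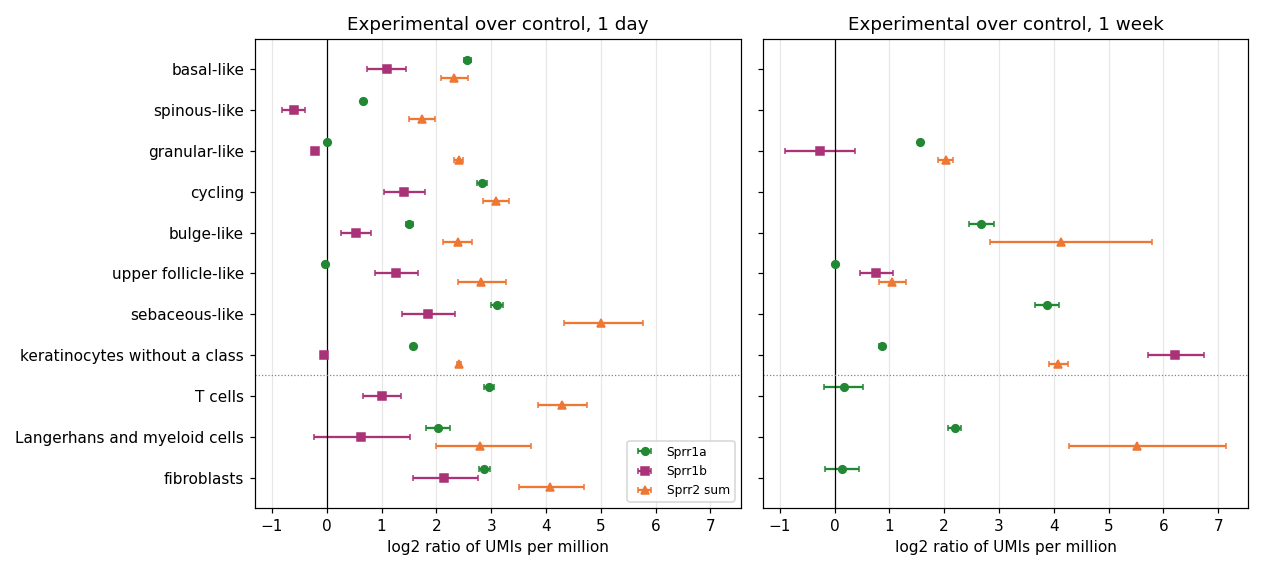
Log2 ratio of experimental over control CPM by compartment for Sprr1a, Sprr1b and the Sprr2 sum at 1 day (left) and 1 week (right), with exact 95% intervals as bars, where each library had at least 50 cells and 4 UMIs. The Sprr1a points of granular-like cells at 1 day and of upper follicle-like cells at both times sit near 0, while every Sprr2 sum plotted lies above 0.

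The makeup of the Sprr2 RNA differed between compartments. In 1-day control granular-like cells Sprr2h gave 67.1% and Sprr2a3 0.971% of 1133 Sprr2 UMIs. In control basal-like cells Sprr2a3 gave 47.9% of 426 UMIs and in control cycling cells 51.2% of 164. In experimental cells the Sprr2a3 part was 8.54% in granular-like, 46.8% in basal-like and 69.9% in cycling cells. T cells of the experimental library held 14.1% Sprr2a3, 33.4% Sprr2d and 38.3% Sprr2h over 1014 UMIs. The part of free RNA in these values was not tested. The experimental bulge-like cells held 19.2% Sprr2a3, 20.96% Sprr2d and 48.5% Sprr2h.

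At 1 week, in control basal-like cells Sprr2a3 gave 171 of 173 Sprr2 UMIs (98.8%). Control spinous-like cells held 78.9% Sprr2h and 4.24% Sprr2a3 over 4266 UMIs, and control granular-like cells 94.8% and 0.8% over 500 UMIs. In 1-day control cells the Sprr2a3 part was 3.15% in bulge-like cells (159 UMIs) and 17.5% in spinous-like cells. The kits read unlike ends of a transcript, and the unique share of Sprr2a3 words differs between these ends. The parts are therefore not compared between the time points. Over all keratinocytes the 1-day Sprr2h part was 75.4% (control) and 42.5% (experimental), and the 1-week part 73.2% and 29.5%. The Sprr2a3 part was 11.4% (control) and 20.8% (experimental) at 1 day, and 12.4% and 43.0% at 1 week.

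At 1 week 3 compartments allowed a comparison in at least 50 cells a library beside the keratinocytes as a whole and the granular-like class. Bulge-like cells (957 control, 850 experimental) held Sprr1a at 45.6 and 292 CPM (2.68) and Sprr2 at 1.15 and 20.1 CPM (4.12). All 3 members that passed there were higher, against 3.6% of genes tested. Of these, Sprr1b (24 experimental UMIs) and Sprr2a3 (69) were at 0 in the control and passed only through the experimental cells, so the count is not used as support. Of the 83 experimental Sprr2 UMIs in bulge-like cells, 83.1% were Sprr2a3.

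Upper follicle-like cells (504 and 547) held Sprr1a at 21269 and 21385 CPM when pooled, a log2 ratio of 0.01. The parts of the libraries differed: cells with Xist UMIs and no Y-linked UMI held Sprr1a at 20106 (control) and 29485 CPM (experimental), and cells with Y-linked UMIs and no Xist UMI at 22103 and 16958 CPM. The pooled Sprr2 sum was 51.3 and 106 CPM (1.05), with 70.6 and 70.3 CPM in the cells with Xist and 66.4 and 125 CPM in those with Y-linked UMIs. Sprr2a3 was at 15.8 and 45.8 CPM (1.53) and Sprr2h at 26.1 and 53.6 CPM (1.04). Sprr2e was lower, at 7.03 CPM (24 UMIs) in control and 0.587 CPM (3 UMIs) in experimental cells, a log2 ratio of -3.58 (-5.96 to -1.86). It was so in the cells with Xist (26.9 and 1.80 CPM) and not in those with Y-linked UMIs (0 and 0.348 CPM). Of 6 members that passed 3 were higher and 1 lower. Of all genes tested 8.11% were higher, and the share that was lower was not computed. Sprr2d, 1 of the 3, had 0 control and 32 experimental UMIs and passed only through the latter. Sprr2e passed only through its control UMIs. The count is therefore not used as support.

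Sebaceous-like cells (126 and 464) held Sprr1a at 155 and 2280.0 CPM (3.88). Most control cells lay in 1 of their clusters (95 control and 36 experimental cells, Sprr1a at 68.8 and 245 CPM) and most experimental cells in the other (31 and 428 cells, 259 and 2828 CPM). In the latter cluster the median depth was 14261 UMIs for control and 1708.5 UMIs for experimental cells, and 24.0% of barcodes were low-UMI barcodes. No Sprr2 UMI was seen in the control, and 648 were seen in the experimental cells (344 CPM), which at a floor of 3 counts is a log2 ratio of at least 7.05. Granular-like cells held Sprr1a at 7946 CPM in 201 control cells and 23460.4 CPM in 151 experimental cells (1.56). Their Sprr2 sum was 281 and 1145 CPM (2.03). Of these control cells 138 formed a cluster with no experimental cell, so the class was not the same mixture in both libraries.

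At 1 week T cells held Sprr1a at 357 and 400.2 CPM, and 0 and 19 Sprr2 UMIs (75.3 CPM). Langerhans and other myeloid cells held more, with Sprr1a at 993 and 4543 CPM and Sprr2 at 7.24 and 331 CPM, over 117 and 80 cells. Experimental sebaceous-like cells lay above the T cells for both. They lay below the myeloid cells for Sprr1a and close to them for Sprr2. Experimental bulge-like cells lay below both cell types for both. Granular-like cells lay above both, and upper follicle-like cells did so for Sprr1a but lay between them for Sprr2. The part of free RNA in these values was not tested.

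Clusters with Krt8 and Krt18, keratins of simple epithelia, among their 10 leading genes and more simple-epithelial than keratinocyte markers there are called Krt8-led. They held 4110 experimental and 2 control cells at 1 day, and 729 experimental and no control cells at 1 week. Krt8 came first at 1 day. At 1 week Krt6b and Prl2c3 stood before it in both clusters, Rptn, Flg and Tchh were also among the 10, and the granular list was the best of the keratinocyte lists. Further clusters of this kind, in none of which Krt8 came first, with 3150, 163 and 97 experimental cells at 1 week (6, 0 and 0 in the control), were set aside with the low-UMI clusters. A keratinocyte cluster described below, also with Krt8 as its leading gene, held 835 control cells. The experimental Krt8-led cells expressed Krt14 at 6922 and 13384 CPM at 1 day and 1 week, and little Trp63, at 61.0 and 41.7 CPM. At 1 day they held Sprr1a at 8090 CPM, Sprr1b at 102 CPM and Sprr2 at 435 CPM, of which 76.6% was Sprr2a3 (333 CPM).

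At 1 week they held Sprr1a at 19143 CPM, Sprr1b at 2013 CPM, Sprr2a3 at 1639 CPM, Sprr2h at 1070.3 CPM, Sprr2d at 953 CPM, Sprr2e at 134 CPM and Sprr2i at 53.9 CPM. The Sprr2 sum was 3850.3 CPM, and Sprr2 reached 201 UMIs per 1000 Sprr1a UMIs, against 60 in experimental keratinocytes. These 4.67% of the cells held 38.9% of the library's Sprr1a, 55.4% of its Sprr1b and 54.3% of its Sprr2 UMIs, beside 21.98% of all its gene UMIs. Keratinocytes were 18.0% of the cells, with 40.5% of all UMIs and 12.2% of the Sprr2 UMIs. The low-UMI clusters were 73.7% of the cells, with 33.2% and 33.0%.

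A smaller cluster at 1 week, led by Krt6b and Rptn, held 76 experimental and no control cells. It had the highest Sprr1b and Sprr2 levels seen in a keratinocyte cluster, at 11292 and 9208 CPM, with Sprr2d at 5280.0 CPM. At 1 day a cluster of 123 control and 436 experimental cells led by Krt6b and S100a9 held Sprr2 at 608 and 3493 CPM. Its Sprr1b was at 1637 and 1511 CPM, the highest of any cluster compared at 1 day. These clusters were singled out after their values were seen.

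Keratinocytes that the marker lists left without a class held 66.3% of the control and 52.8% of the experimental Sprr2 UMIs at 1 day, with 28.6% and 36.0% of all UMIs. At 1 week they held 3.34% and 7.67%, with 9.34% and 16.7% of all UMIs. At 1 day 4356 experimental cells (4 in the control) formed a cluster led by Slpi, a protease inhibitor of inflamed skin, with Sprr1a at 15119 CPM and Sprr2 at 1078 CPM. At 1 week a cluster of 835 control and 703 experimental cells, whose leading gene over both libraries together was Krt8, held Sprr1a at 363 and 691 CPM. Its Sprr2 sum was 39.5 and 467 CPM, nearly all of it Sprr2a3 (39.4 and 423 CPM), and its Sprr1b rested on 3 control and 545 experimental UMIs. In the low-UMI clusters of that time the Sprr1b levels were 15.7 and 859 CPM and the Sprr2 levels 95.8 and 1554 CPM, in 11356 and 11523 cells.

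**Figure D3:**
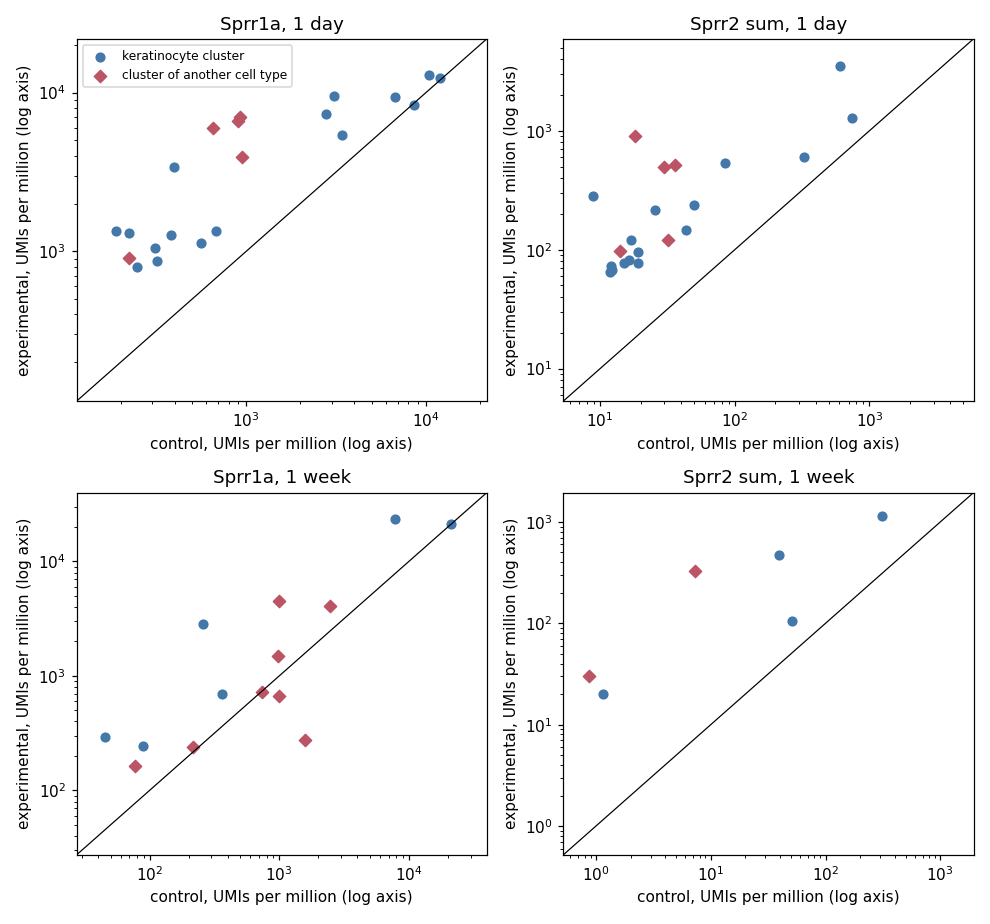
Sprr1a (left) and Sprr2 sum (right) of each cluster at 1 day (top) and 1 week (bottom), control CPM against experimental CPM on log axes, for keratinocyte clusters (circles) and clusters of another cell type (diamonds) with at least 30 cells in each library and values above 0, with the line of equal levels. Every cluster drawn lies above the line for the Sprr2 sum, while several clusters with much Sprr1a in the control lie near it.

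Shares of cells were measured after drawing each cell down to 2000 UMIs, which left out shallower cells. In 1-day keratinocytes 56.8% of 18068 control and 90.1% of 14833 experimental cells had an Sprr1a UMI (68.4% and 93.9% without thinning, median depths 4651.5 and 3911 UMIs). This left out 2454 and 3503 shallower cells. T cells had shares of 55.8% (95 cells) and 88.6% (298 cells), at median depths of 3140 and 3913 UMIs. The interval of the control T cells, 45.2% to 66.0%, covers the keratinocyte share, so over all 1-day keratinocytes the Sprr1a share could not be set apart from background.

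By compartment the Sprr1a share was 97.0% and 98.9% in granular-like, 85.9% and 92.8% in spinous-like, and 90.2% and 93.6% in upper follicle-like cells, all above the T cells of their library. In the experimental library the spinous-like (263 cells) and upper follicle-like (530 cells) shares stood close to that of the 298 T cells. Their intervals were not compared. The spinous-like Sprr1a level in CPM also lay below that of T cells, so its share is not set apart from background. The Sprr1a share was 32.7% and 72.6% in basal-like, 36.5% and 71.0% in bulge-like, and 29.5% and 74.7% in cycling cells. These lie below the shares in T cells of the same library and are not read as expression. Myeloid cells, at median depths of 2644 and 2577 UMIs, had 34.2% and 69.9%.

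Any Sprr2 member was detected in 6.37% of control and 38.8% of experimental keratinocytes at 1 day (12.1% and 47.7% without thinning), beside 5.26% and 30.2% of T cells. Granular-like cells had 9.80% and 50.8%, basal-like cells 3.23% and 12.7%, bulge-like cells 2.56% and 12.7%, and upper follicle-like cells 2.79% and 13.6%. All of these control shares lie inside the interval of the 95 control T cells (1.73% to 11.9%) and could not be set apart from background. In the experimental library the granular-like share lay above the interval of the T cells (25.0% to 35.8%) and the shares of the other 3 below it. Sprr2a3 was detected in 15.3% of experimental cycling cells and 22.2% of experimental Krt8-led cells, above the 8.39% of T cells (interval 5.50% to 12.1%). Its 1.82% in control cycling cells lies under the 3.81% that no positive cell among 95 control T cells allows.

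At 1 week an Sprr1a UMI was found in 30.7% of 5622 control and 46.8% of 2402 experimental keratinocytes (38.4% and 62.8% without thinning, median depths 6910.0 and 6820.0 UMIs), with 399 and 414 cells too shallow. T cells had 10.9% (110 cells) and 21.6% (51 cells), at median depths of 2516 and 2439 UMIs. Sprr2 members were found in 3.93% and 11.4% of keratinocytes and in 0% and 3.92% of T cells. The 110 control T cells allow an Sprr2 share of up to 3.30%.

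In the experimental library Sprr2 was found in 62.3% and Sprr1b in 32.3% of 718 Krt8-led cells. Bulge-like cells stood at 8.06% and 18.8% for Sprr1a, below the T cells. For Sprr2 they stood at 2.25% in experimental cells, also below the T cells, and at 0.248% in control cells, under the limit that the control T cells allow. Upper follicle-like cells had an Sprr1a UMI in 88.6% of control and 83.6% of experimental cells.

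The share of keratinocytes with a UMI of any member was 59.6% in control and 91.7% in experimental cells at 1 day, 32.2 points apart, and 31.3% and 49.2% at 1 week, 17.9 points apart. The 1-week difference shrank to 4.30 points when the 3 unnamed control clusters were counted, and to -0.909 points when at least 2 UMIs were also required. It grew to 26.78 points without thinning, 28.58 with the Krt8-led clusters, 31.71 with doublets kept and 35.79 at Leiden resolution 0.5. Of the 1-week Langerhans and other myeloid cells, 85.15% (control) and 62.8% (experimental) held no member. For keratinocytes these values were 68.7% and 50.8%.

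The RNA was unevenly spread. At 1 day the 10% of keratinocytes with the most Sprr1a held 64.4% of its UMIs in the control and 40.0% in the experimental library, where the median cell had 1 and 18 UMIs. The 10% with the most Sprr2 held 95.3% and 72.0% of its UMIs. At 1 week the 10% with the most Sprr1a held 81.8% and 75.6% of its UMIs, and the 10% with the most Sprr2 held 100% and 93.5%. No more than 10% of the 1-week control keratinocytes held an Sprr2 UMI, so the 100% was bound to follow. The control Sprr2 values largely restate how few cells held any Sprr2 UMI.

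Members were detected together. At 1 day 12.2% of control and 44.7% of experimental keratinocytes held at least 2 members, and 0.188% and 7.19% held at least 4. T cells held at least 2 in 6.32% and 38.3%, and granular-like cells in 26.7% and 61.8%. At 1 week the keratinocyte values were 4.52% and 10.7% for at least 2 members and 0.0889% and 3.75% for at least 4. Krt8-led cells reached 36.2% at 1 day and 62.5% at 1 week for at least 2, and 1.14% and 26.7% for at least 4.

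Among 1-day control keratinocytes an Sprr2 member was found in 8.95% of cells with Sprr1a and 2.97% of those without it. In the experimental library these shares were 41.6% and 13.2%. With and without Sprr1b they were 17.9% and 5.03% in control and 58.1% and 34.7% in experimental cells.

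At 1 week, of the experimental keratinocytes with Sprr1b 75.9% held an Sprr2 member, against 7.58% of those without it, and in Krt8-led cells 91.8% against 48.1%. The control shares were 16.9% (13 of 77 cells) and 3.75%. Depth was fixed at 2000 UMIs but cell state was not, so these shares describe the cells and not a link between genes.

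Within the Sprr2 group Sprr2d and Sprr2h were paired. Sprr2h was found in 62.5% of 1-day experimental keratinocytes with Sprr2d and 20.9% of those without it, and in 47.4% and 5.03% of control cells. Sprr2a3 and Sprr2d were less so in the 1-day control, where 1 of 139 cells with Sprr2a3 held Sprr2d (0.719%), against 0.535% of the cells without it. In the experimental library these shares were 20.9% and 12.4%, and in 1-day Krt8-led cells 4.64% and 3.69%. At 1 week none of 46 control keratinocytes with Sprr2a3 held Sprr2d, and 44.7% of 179 experimental ones did.

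**Figure D4:**
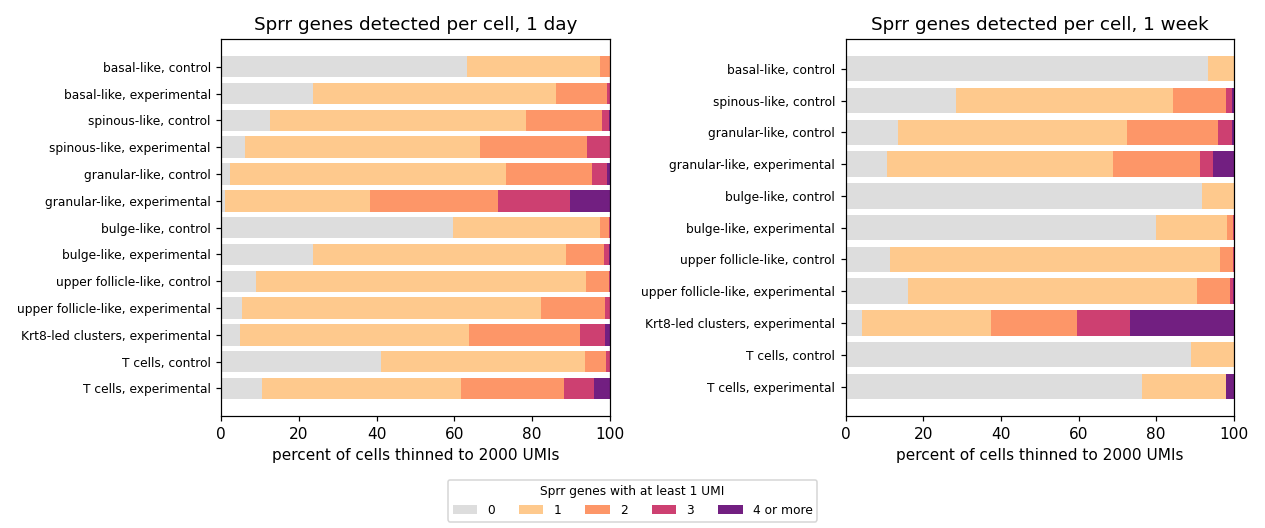
Percent of cells (thinned to 2000 UMIs) with 0, 1, 2, 3 or at least 4 members detected, by compartment and library, at 1 day (left) and 1 week (right). At least 2 members were detected in 61.8% of experimental granular-like cells at 1 day and 62.5% of Krt8-led cells at 1 week. T cells are drawn for background, and myeloid cells are not drawn.

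Most other envelope genes were also higher. Of 31 listed envelope genes of the same complex 27 passed the minimum in 1-day keratinocytes, and 26 were higher and none lower, with a median log2 ratio of 4.44, beside 7.24% higher and 3.12% lower among all genes tested. Lce1g, Lce1h, Lce3e and Lce3f passed only through their experimental UMIs, so this count and median are a description and not support. Lce1a2 was at 4.55 and 154 CPM and Lce1a1 at 4.32 and 122 CPM. Lce3f was at 0.0464 CPM (5 UMIs) and 6.73 CPM, and Lce3e at 0 and 3.15 CPM. The gene not called was Ivl, for involucrin, the scaffold laid down early, at 197 and 126 CPM.

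At 1 week 28 passed, 27 were higher and 1 was lower, with a median of 3.96, beside 13.3% and 5.45% of all genes. Here Lce3d, Lce3e, Lce3f and Tchhl1 passed only through the experimental cells. Lce3e was at 0 and 12.3 CPM, Lce3d at 0 and 10.8 CPM, Tchhl1 at 0 and 1.73 CPM, and Lce3f at 0.0209 CPM (1 UMI) and 4.36 CPM. The gene that was lower was again Ivl, at 170.0 CPM in control and 58.7 CPM in experimental cells (-1.53). The involucrin level was thus below its control at both times, and past 2-fold at 1 week.

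Of 12 cross-linking and scaffold genes 11 passed at each time, to be read beside the same shares of all genes. At 1 day 4 were higher and none lower, with a median of 0.42: the protease inhibitor Csta1 (24.6 and 116 CPM), the transglutaminase Tgm1 (32.5 and 117 CPM), Cnfn (157 and 526 CPM) and Sbsn (4028 and 8239 CPM). At 1 week 3 were higher, namely Cnfn (142 and 805 CPM), Csta1 (26.3 and 103 CPM) and Tgm1 (54.6 and 143 CPM). The transglutaminase Tgm3 was lower, at 6.938 and 3.004 CPM, and the median was 0.25.

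Of 24 regulators all passed. At 1 day 4 were higher and none lower (median 0.29), namely the ETS factors Elf3 (4.02 and 69.8 CPM) and Ehf (212 and 513 CPM), the repressor Prdm1 (46.4 and 230.1 CPM) and Grhl3 (36.8 and 105 CPM). Higher genes were 7.24% of all genes tested at that time. At 1 week 4 were higher and 3 lower, against 13.3% and 5.45% of all genes, and the median of 0.19 was that of all genes. Elf3 stood at 7.001 and 67.6 CPM. Among the lower genes were Gata3 (199 and 70.1 CPM) and Fosl1, a partner in AP-1 (775 and 290 CPM).

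Most stress and wound genes were higher too. Of 15 listed, 13 were higher and none lower at 1 day (median 2.09), against 7.24% and 3.12% of all genes, with Slpi at 4.29 and 363 CPM, Krt6b at 13.3 and 241 CPM, S100a8 at 1.36 and 18.0 CPM and Il1f6 at 1.11 and 14.4 CPM. At 1 week 10 were higher and 1 lower (median 2.40), against 13.3% and 5.45%, and Krt6b and Il1f6 passed only through the experimental cells. The levels were 0.251 and 212 CPM for Krt6b, 0.167 and 36.8 CPM for Il1f6, 3.87 and 153 CPM for Lcn2, and 1.61 and 52.6 CPM for S100a9. The 1 lower gene was Il1b, at 2.21 and 0.55 CPM.

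The other 7 Sprr genes were scarce except 2 of them. Sprr2f was at 9.28 and 131 CPM in 1-day keratinocytes (3.82) and at 4.97 and 5.84 CPM at 1 week (0.23). Sprr4 was at 0.789 and 1.92 CPM at 1 day and at 18.1 and 129 CPM at 1 week (2.84). The remaining 5 genes did not exceed 5.21 CPM in any keratinocyte sum.

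Genes were ranked by how closely their levels followed the sums across clusters. Over 44 cluster sums of 1 library at 1 day, the Sprr2 sum was followed most closely by Alox12b (Pearson r 0.90), Asprv1 (0.90), Sult2b1 (0.89), Klk9 (0.89) and Il1f9 (0.89). The Sprr1 sum was followed by Ly6g6c (0.99), Grhl3 (0.97), Asprv1 (0.95), Mal2 (0.93) and Endou (0.93). Over 33 sums at 1 week the Sprr2 sum was followed by Nccrp1 (0.91), Casp14 (0.88), Csta1 (0.84), Tgm1 (0.84) and Gjb2 (0.84), and the Sprr1 sum by Dsc1 (0.96), Teddm3 (0.94), Ly6g6c (0.94), Asprv1 (0.94) and Ceacam19 (0.93).

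Sprr3 could not be ranked in this way because of its counts, and Sprr1b was ranked in its place after the values were seen. At 1 day Calm4 (0.93), Krt10 (0.90), Krtdap (0.89), Skint6 (0.89) and Krt1 (0.88) followed Sprr1b, and at 1 week Gsdmc (0.84), Gjb2 (0.83), Serpinb3a (0.82), Endou (0.81) and Klk6 (0.81). The Sprr2 and Sprr1 sums had an r of 0.81 and 0.78. The sums share 2 libraries and differ in depth, so these values describe likeness only.

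Both 1-day libraries carried 3 hashtag antibodies that divided their cells. In the experimental keratinocytes with a clear leading hashtag the Sprr2 sum was 747, 1129.8 and 446 CPM and Sprr1a 9717, 9526 and 8988 CPM. In the control it was 87.7, 101 and 78.6 CPM for Sprr2 and 2691, 3118 and 3448 CPM for Sprr1a. The experimental Sprr2 values spread over a wider range than the control ones. Sprr1b overlapped between the libraries, at 266, 88.1 and 216 CPM in the control and 197, 472 and 150.4 CPM in the experimental library. So did Sprr1a in upper follicle-like cells, at 7403, 9922 and 9418 CPM (control) and 7168, 8694 and 10458 CPM (experimental). What a hashtag stands for is not given in the sources used here, so these are parts of 1 library and not replicates.

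Over all 1-week keratinocytes Xist was at 264 CPM in control and 103 CPM in experimental cells, and Y-linked genes at 110.5 and 102.9 CPM. The pooled 1-week libraries may therefore also differ in sex makeup, which was not tested. At 1 week the keratinocytes were divided by UMIs of Xist and of Y-linked genes. There were 2126 control and 576 experimental cells with Xist only, and 2285 and 1118 with Y-linked UMIs only. Cells with both or neither were left out. Those with Xist held Sprr1a at 3111 CPM in control and 12166 CPM in experimental cells, and Sprr2 at 90.2 and 581 CPM. Those with Y-linked UMIs held Sprr1a at 4580 and 5312 CPM and Sprr2 at 148 and 375 CPM. Both levels were higher in experimental cells on either side of the division, and Sprr1a differed more among the cells with Xist. Single members did not all follow: Sprr2h was lower in the experimental cells with Y-linked UMIs, and Sprr2e there was at 3.58 and 5.64 CPM, under 2-fold.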

How the data were processed

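Single-cell libraries of mouse epidermis were taken as 4 matrices of UMI counts per gene and barcode, deposited by the authors and made with Cell Ranger 5.0.1 per the file headers. The build was mm10 and Seurat was also used, per the submitters' processing notes. Cell calling and any filter before deposit are not given in the sources used here.

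Barcodes with under 500 UMIs, under 300 genes or over 15% mitochondrial UMIs were removed. Scrublet's automatic threshold marked 17.62% of barcodes in 1 library and at most 0.0121% in each of the others, so the highest scores were removed at 0.8% per 1000 barcodes (14.73% to 26.84% of a library). Cells of each time point were clustered together with scanpy 1.11.5 (2000 variable genes, 30 components, 15 neighbours, Leiden resolution 1, leidenalg 0.10.2), leaving out all Sprr genes and the pathway lists. Clusters were named from marker lists, and the naming rule was revised 4 times after seeing the data. The last revision left unnamed the 1-week clusters led by markers of several other cell types.

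UMIs were summed per compartment and library. Intervals are exact Poisson, Clopper-Pearson or conditional binomial intervals at 95% (scipy 1.17.1), and a level of 0 was set to 3 counts for a lower bound. TMM scaling (edgeR 4.0.16) was an alternative, with others listed in the closing section. The scripts were tested on simulated data. Gene positions are from GENCODE M21 and promoters from RefSeq (GRCm38.p6), where all 8 members matched.

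The members and lists were chosen with earlier results of these data known. Named are all members, and from each pathway list up to 4 genes per time point with the largest absolute log2 ratio. Likeness ranks the 5 genes with the highest r of log2(CPM + 1) over sums of at least 50 cells, among genes reaching 10 CPM. Ivl and Il1b, and the clusters singled out by value, were chosen after their values were seen, as were the hashtag lead ratio of 1.5 and the limits of the figures. The values of 1 gene that this rule names are not reported here.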

Additional observations from a re-analysis of the deposited data

Results flagged for a closer look

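In keratinocytes without a class the log2 ratio of Sprr1b, experimental over control, was -0.0472 at 1 day, far under 2-fold and not called, and 6.21 at 1 week. It was picked out for the unlike signs alone. Different clusters and different kits make up this class at the 2 time points, and the difference between the ratios was not tested.

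The 1-day matrices also hold hashtag antibody counts, a signal outside the gene measurements. The median UMIs per barcode of hashtags 1, 2 and 3 were 88, 113 and 111 in the control and 70, 139 and 71 in the experimental library, against a median of 0 for hashtag 4.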

How the results depend on the processing

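For the sums and the share of cells with any member, values that moved by more than their counting interval are given here, and their other alternatives stayed inside it. The 1-day log2 ratio of the Sprr2 sum in keratinocytes was 3.17 as reported, 3.074 over all cells, 3.066 with the Krt8-led clusters, 3.112 with doublets kept, 3.064 with mitochondrial and ribosomal genes left out of the scaling, 3.132 with TMM scaling, 3.624 as the mean CPM per cell, 2.415 as the median over clusters, 3.207 with the low-UMI rule applied at 1 day and 3.248 over every Sprr2 gene. The 1-day log2 ratio of the Sprr1 sum in keratinocytes was 1.577 as reported, 1.561 over all cells, 1.552 with the Krt8-led clusters, 1.548 with doublets kept, 1.57 at a common lowest UMI count, 1.584 at Leiden resolution 0.5, 1.588 without free-RNA-like barcodes, 1.472 with mitochondrial and ribosomal genes left out of the scaling, 1.54 with TMM scaling, 1.591 with the low-UMI rule applied, 1.788 as the mean CPM per cell and 1.269 as the median over clusters. The 1-day log2 ratio of the total in keratinocytes was 1.652 as reported, 1.631 over all cells, 1.621 with the Krt8-led clusters, 1.619 with doublets kept, 1.645 at a common lowest UMI count, 1.665 without free-RNA-like barcodes, 1.547 with mitochondrial and ribosomal genes left out of the scaling, 1.615 with TMM scaling, 1.668 with the low-UMI rule applied, 1.862 as the mean CPM per cell and 1.409 as the median over clusters. The 1-week log2 ratio of the Sprr2 sum in keratinocytes was 2.055 as reported, 3.724 over all cells, 3.873 with the Krt8-led clusters, 4.021 with doublets kept, 4.298 at Leiden resolution 0.5, 2.878 with the low-UMI clusters, 1.878 with the 3 unnamed control clusters, 1.989 with mitochondrial and ribosomal genes left out of the scaling, 1.839 with TMM scaling, 3.486 as the mean CPM per cell and 2.728 as the median over clusters. The 1-week log2 ratio of the Sprr1 sum in keratinocytes was 0.993 as reported, 1.533 over all cells, 1.65 with the Krt8-led clusters, 1.763 with doublets kept, 2.371 at Leiden resolution 0.5, 1.213 with the low-UMI clusters, 0.9085 with the 3 unnamed control clusters, 0.9788 without free-RNA-like barcodes, 0.9275 with mitochondrial and ribosomal genes left out of the scaling, 0.7776 with TMM scaling, 1.33 as the mean CPM per cell and 1.307 as the median over clusters. The 1-week log2 ratio of the total in keratinocytes was 1.035 as reported, 1.673 over all cells, 1.788 with the Krt8-led clusters, 1.891 with doublets kept, 2.52 at Leiden resolution 0.5, 1.298 with the low-UMI clusters, 0.9481 with the 3 unnamed control clusters, 1.02 without free-RNA-like barcodes, 0.9698 with mitochondrial and ribosomal genes left out of the scaling, 0.8199 with TMM scaling, 1.406 as the mean CPM per cell and 1.589 as the median over clusters. The 1-day difference in the share of keratinocytes with any member was 32.15 points as reported, 37.69 thinned to 1000 UMIs, 23.46 without thinning, 41.51 requiring at least 2 UMIs, 30.11 with doublets kept, 29.95 with the low-UMI rule applied and 31.06 without free-RNA-like barcodes. The 1-week difference in the share of keratinocytes with any member was 17.88 points as reported, 20.98 thinned to 1000 UMIs, 26.78 without thinning, 13.39 requiring at least 2 UMIs, 22.61 over all cells, 28.58 with the Krt8-led clusters, 31.71 with doublets kept, 35.79 at Leiden resolution 0.5, 4.303 with the 3 unnamed control clusters and -0.909 with those control clusters and at least 2 UMIs. The sign of that 1-week share difference thus reversed in the last of these, and the causes of these moves were not tested. The free-RNA, cluster-median, unnamed-cluster, 1-day low-UMI and immunoglobulin-cluster alternatives were chosen after seeing the data. For called single members, 0 of 68 alternatives at 1 day and 0 of 52 at 1 week reversed the difference, and reversal was counted for called members only. Over all 80 and 93 alternatives of single members the log2 ratios were 0.309 to 6.395 and -0.0687 to 6.606. The value of -0.0687 was that of Sprr2i, which was not called at 1 week and changed sign there. Of these alternatives 35 and 54 lay outside the counting interval of the reported value. The 68 and 52 alternatives of called members all kept at least 2-fold, and at 1 week the uncalled Sprr1a, Sprr2h and Sprr2i passed 2-fold over all cells (1.438, 2.252 and 3.848), with the Krt8-led clusters (1.563, 2.493 and 4.464), at Leiden resolution 0.5 (2.263, 2.937 and 5.169), with doublets kept (1.685, 2.656 and 4.625), with the low-UMI clusters (1.153, 1.439 and 2.782) and as the mean CPM per cell (1.274, 2.264 and 2.331). As the median over clusters Sprr1a (1.252) and Sprr2h (1.287) passed it too. No alternative was made to leave out the 1-week cluster of 76 experimental cells that is high in Sprr1b and Sprr2d. No library could be left out: leaving 1 out ends the comparison. No paired analysis was possible because each group is 1 library. Sprr3 held at most 2 UMIs in a library, and absence of its RNA was not told apart from too little depth.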
